A study of Mus musculus with 18 samples.

Results

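The 10 genes described here encode the heat shock protein machinery around BAG3. They were the HSP70 genes Hspa1a, Hspa1b and Hspa8, the HSP110 gene Hsph1, the HSP90 gene Hsp90aa1, the J-domain genes Dnaja1, Dnajb1, Dnajb4 and Dnajb6, and Stub1, which encodes the ubiquitin ligase CHIP. They were chosen by symbol among the 19094 protein-coding genes of the deposited count table, and all 10 were present and passed the filter on low counts in every comparison. The study isolated cardiomyocytes and cardiac fibroblasts from hearts of 3 mice carrying a Bag3-P209L transgene (Bag3-P209L Tg+) and 3 Bag3-WT mice, all aged 16 months. Each mouse gave 2 cardiomyocyte libraries (rep1 and rep2, summed per mouse) and 1 fibroblast library, 18 in all. The mice are called Tg mouse 1 to 3 and WT mouse 1 to 3. Per the labels' protocols the libraries were made from oligo(dT)-enriched RNA, and the labels do not name the promoter of the transgene, the strain or a treatment.

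HSP70 proteins hold unfolded stretches of other proteins in a cycle of ATP binding and hydrolysis. J-domain proteins (the DNAJ or HSP40 family) deliver clients to HSP70 and start the hydrolysis, while nucleotide exchange factors, among them HSP110 and the BAG proteins, reset the cycle. HSP90 takes over partly folded clients such as kinases and receptors. CHIP binds the tails of HSP70 and HSP90 and marks their clients with ubiquitin, and in muscle BAG3 and CHIP together route damaged cytoskeletal proteins to autophagy. Many of these genes are also targets of heat shock factor 1, which binds heat shock elements in promoters.

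The summed cardiomyocyte libraries held 10860000 to 17170000 estimated counts per mouse, of which rep1 gave 1220000 to 5640000, and the fibroblast libraries 17270000 to 61290000. Mitochondrial protein genes took 51.7% to 85.5% of the counts in cardiomyocytes, which left 2260000 to 7790000 nuclear counts. They took 16.7% to 39.2% in the fibroblasts of 5 mice and 74.2% in those of WT mouse 1, and fibroblasts had 11310000 to 15810000 nuclear counts. WT mouse 1 thus stood apart in fibroblasts. In cardiomyocytes its share was the highest by little, with WT mouse 2 at 85.2%. Levels below are CPM, counts of a gene relative to the library total, for each mouse, scaled by trimmed mean of M-values (TMM) over all 12 mouse and cell type columns. Fold changes are log2 estimates of edgeR's quasi-likelihood test. Their standard error (SE) is approximate, the size of the estimate divided by the square root of the test's F statistic. A gene is called at a Benjamini-Hochberg adjusted p below 0.05 over all genes tested. Bag3 itself stood at 61.9 ± 15.1 CPM in Tg and 74.0 ± 49.0 CPM in WT cardiomyocytes and at 156 ± 65.5 and 143 ± 39 CPM in fibroblasts (SD, n = 3 each). The genotype groups overlapped for Bag3 in both cell types. No source used here says whether transgene reads were counted under the mouse symbol, so these values do not check the genotype labels.

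Several members share sequence with other genes, which bears on how reads were divided among them. The neighbouring genes Hspa1a (chr17:34969190-34972156, GENCODE M21, GRCm38, minus strand) and Hspa1b (chr17:34956436-34959238, minus strand) are the pair of members that share most with each other. Of the stretches of 31 bases in Hspa1a, 63.8% also stood in Hspa1b, and of those in Hspa1b 67.7% stood in Hspa1a. Upstream of the genes, 247 of the 250 bases before the start sites were the same (98.8%). The last 130 bases before each start site are printed here because they carry the same match to a heat shock element and differ at only 1 of the 130 positions. They come from RefSeq on GRCm38.p6, at chr17:34972157-34972286 for Hspa1a and chr17:34959239-34959368 for Hspa1b, both on the minus strand, with the match in capitals.
Hspa1a: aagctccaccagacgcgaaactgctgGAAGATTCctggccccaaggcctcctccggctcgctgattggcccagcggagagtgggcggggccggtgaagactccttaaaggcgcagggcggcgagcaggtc
Hspa1b: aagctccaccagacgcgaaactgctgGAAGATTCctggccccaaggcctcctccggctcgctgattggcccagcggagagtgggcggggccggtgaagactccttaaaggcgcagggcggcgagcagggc

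Heat shock factor binds inverted repeats of a short unit, and RefSeq held promoter windows (250 bases before to 50 after the start site) for 8 of the 10 members. Hspa8 and Hsp90aa1 are named only. The 2-unit motif searched was TTCNNGAA or GAANNTTC, and the 3-unit motif, which contains it, was TTCNNGAANNTTC or GAANNTTCNNGAA, each of which covers both strands. A 2-unit match stood in the windows of 7 of the 8 members, all but Dnajb1, against 15.1% of 32851 windows and 17% of 27025 genes. A 3-unit match stood in Dnajb6 and Hsph1, against 0.603% of windows and 0.662% of genes. A match is a description of these letters, not a binding site. Short stretches around the match are printed for both genes with a 3-unit match, and for Stub1, the member with the opposite cell type difference below. They lie at chr5:29735844-29735873 (plus strand) for Dnajb6, chr5:149636287-149636316 (minus strand) for Hsph1 and chr17:25833021-25833050 (minus strand) for Stub1. The matches, in capitals, begin 46 bases before, at base 37 after and 123 bases before the respective start site.
Dnajb6: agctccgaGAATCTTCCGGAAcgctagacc
Hsph1: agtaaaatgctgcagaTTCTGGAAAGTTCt
Stub1: gcgcggcgGAAGCTTCtcagagctaaggga

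The cell type comparison asked, within each mouse, how cardiomyocyte libraries differed from fibroblast libraries. Of the 10 members, 7 were lower in cardiomyocytes (Hspa1a, Hspa1b, Hspa8, Hsp90aa1, Dnaja1, Dnajb4 and Dnajb6), Stub1 was higher, and Hsph1 and Dnajb1 did not pass the test. Many genes passed this test: 44.6% of the 13891 genes tested were called, 24.9% lower and 19.7% higher in cardiomyocytes. At an unadjusted p below 0.05 stood 9 members and 52.4% of all genes. The median log2 difference of the members was −0.92, beside −0.04 for all genes tested. Of the members, 4 differed in the same direction in all 6 mice, Hspa1a, Hspa8 and Dnajb6 lower and Stub1 higher, beside 41.7% of all genes in either direction and 24.5% that were lower in all 6. Hspa1a and Hspa1b share sequence and are not separate evidence. Their sum was lower in cardiomyocytes in 5 of 6 mice, with Tg mouse 3 the exception. In these bulk samples fewer cells of a type and less RNA per cell cannot be told apart.

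**Figure D1:**
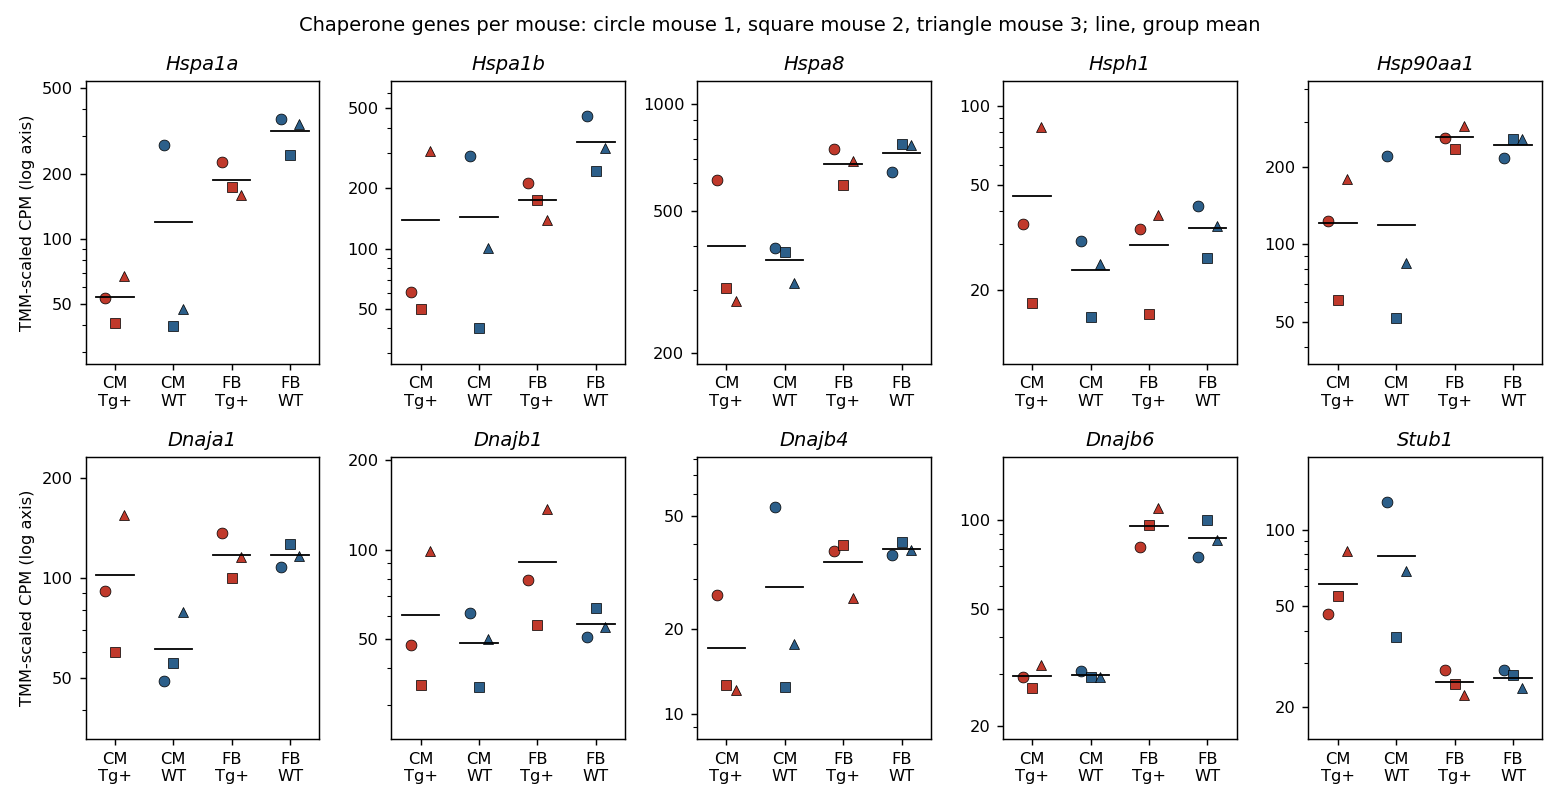
Level of each of the 10 genes in TMM-scaled CPM (log axis) in cardiomyocytes (CM) and fibroblasts (FB) of Tg+ (red) and Bag3-WT (blue) mice; each point is a mouse, the symbol marks the mouse number and the line is the mean of 3 mice. Dnajb6 lies between 27.0 and 32.3 CPM in all 6 cardiomyocyte samples and between 74.8 and 109.8 CPM in all 6 fibroblast samples, while Hspa1a and Hspa1b spread widely in cardiomyocytes.

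Hspa1a and Hspa1b encode the stress-inducible HSP70. In cardiomyocytes, Hspa1a stood at 53.4, 41.2 and 67.4 CPM in Tg mice 1, 2 and 3 and at 274.5, 39.9 and 47.7 CPM in WT mice 1, 2 and 3. The fibroblast values were 227.3, 174 and 160.5 CPM in the Tg mice and 359.8, 245.1 and 343 CPM in the WT mice. WT mouse 1 was far above the other cardiomyocyte samples, yet each mouse had less Hspa1a in its cardiomyocytes than in its fibroblasts. The difference was −1.89 (SE 0.32, 3.71-fold lower, adjusted p = 0.000818, lower in 6 of 6 mice). Without WT mouse 1 it was −2.18 (SE 0.27).

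Hspa1b stood at 60.5, 49.8 and 308.2 CPM in cardiomyocytes of Tg mice 1, 2 and 3 and at 290.5, 39.9 and 100.7 CPM in those of WT mice 1, 2 and 3. In fibroblasts it stood at 211.6, 174.4 and 139.3 CPM in the Tg and at 457, 245.1 and 315.8 CPM in the WT mice. Tg mouse 3 and WT mouse 1 were high in cardiomyocytes, and Tg mouse 3 was the only mouse with more Hspa1b in cardiomyocytes than in fibroblasts. The difference was −1.29 (SE 0.42, adjusted p = 0.0292, lower in 5 of 6 mice). The call was lost without Tg mouse 1, Tg mouse 2, WT mouse 2 or WT mouse 3 (−1.178, −1.175, −1.01 and −1.21) and was kept at −1.71 without Tg mouse 3. The highest cardiomyocyte value of Hspa1b was 7.72 times the lowest, a spread over the 6 mice (SD 1.28 on the log2 scale) larger than that of 97.4% of genes in these cells.

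The split of the counts between both genes was not the same in all mice. Hspa1b counts were 0.868 to 1.27 times those of Hspa1a in the 6 fibroblast libraries, and 0.928 to 1.24 times in the cardiomyocyte libraries of Tg mice 1 and 2 and WT mice 1 and 2. In cardiomyocytes of Tg mouse 3 the ratio was 4.23 and 4.64 in rep1 and rep2, and in those of WT mouse 3 it was 2.69 and 2.05. The repeats of a mouse thus lay close together, while the fibroblast libraries of the same mice stood at 0.868 and 0.921. In the cardiomyocytes of WT mouse 2 and Tg mouse 2, where both genes were low, the split was near even. So it was in those of WT mouse 1, where the sum of both genes was the highest among cardiomyocytes (565 CPM). Summed as 1 gene, Hspa1a and Hspa1b were lower in cardiomyocytes by −1.50 (SE 0.38, adjusted p = 0.00778, lower in 5 of 6 mice), again with Tg mouse 3 the exception.

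**Figure D2:**
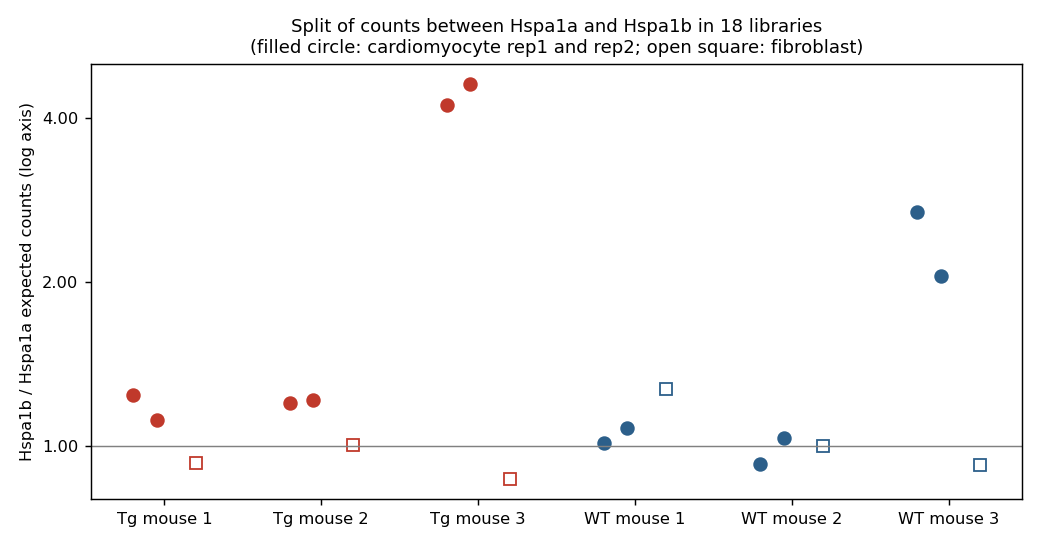
Ratio of Hspa1b to Hspa1a expected counts (log axis) in the 18 libraries, by mouse, with cardiomyocyte libraries as filled circles (rep1 left, rep2 right) and fibroblast libraries as open squares. Both cardiomyocyte repeats of Tg mouse 3 (4.23 and 4.64) and of WT mouse 3 (2.69 and 2.05) lie above all other libraries, whose ratios run from 0.868 to 1.27.

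Hspa8 (chr9:40800984-40810087, plus strand) encodes HSC70, the constitutive HSP70 of the cytosol. In cardiomyocytes it ran from 280.4 to 611 CPM in Tg and from 314.6 to 395.1 CPM in WT mice, and in fibroblasts from 594.3 to 746 CPM in Tg and from 645.4 to 773.7 CPM in WT mice. Only the cardiomyocyte sample of Tg mouse 1, at 611 CPM, reached the fibroblast range. Hspa8 was lower in cardiomyocytes by −0.93 (SE 0.21, 1.90-fold lower, adjusted p = 0.00417, 6 of 6 mice). Of its 31-base stretches, 74.3% also stood in Gm15459, which GENCODE M21 annotates as a processed pseudogene and which is not among the protein-coding genes of the table.

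Hsph1 (chr5:149614287-149636376, minus strand) encodes HSP105, the large HSP110 that exchanges nucleotide on HSP70 and keeps aggregated clients soluble. It stood at 35.6, 17.8 and 83.1 CPM in cardiomyocytes of Tg mice 1, 2 and 3 and at 30.7, 15.8 and 25.1 CPM in those of WT mice 1, 2 and 3. Fibroblasts held 34, 16.2 and 38.6 CPM in Tg and 41.6, 26.4 and 35 CPM in WT mice. The cell types overlapped widely, and the estimate was −0.06 (SE 0.24, adjusted p = 0.851). No 31-base stretch of Hsph1 stood in another gene.

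The estimate for Hsph1 depended on which deposited table was read. The second deposited table holds a normalized signal. The ratio of the counts to this signal relative to the median of the library, called the factor here, differed between genes and libraries, and how the table was made is not stated. In the second table Hsph1 was higher in cardiomyocytes by 1.72 (SE 0.40, adjusted p = 0.00743, limma on the log2 scale). Its factors differed between the cell types by −1.86 on the log2 scale, a larger difference than in 99.4% of 13848 genes, for which the median absolute difference was 0.0602. The factors of Hspa1a, Hspa1b and Hspa8 differed by −0.01 each, those of Dnajb4 by −0.56 and those of Hsp90aa1 by −0.35. In that table Dnajb4 (−0.47), Hsp90aa1 (−0.98) and Dnaja1 (−0.62) kept their direction and were no longer called.

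**Figure D3:**
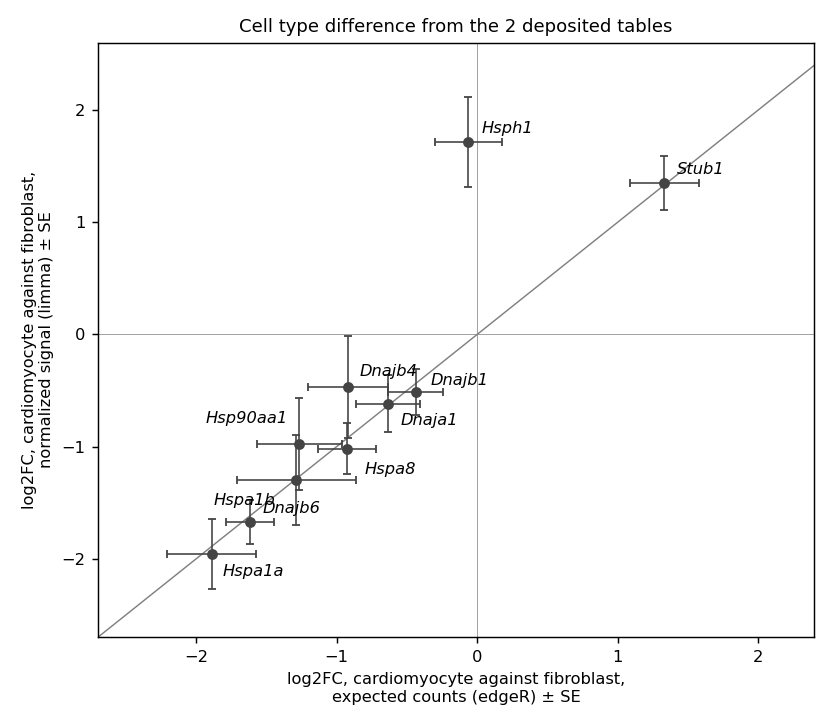
Cell type difference (log2, cardiomyocyte against fibroblast) of each gene from the expected counts (horizontal axis, edgeR) and from the second deposited table (vertical axis, limma), with bars of 1 SE and the line of equal values. Hsph1 lies off the line, at −0.06 and 1.72, while Hspa1a, Hspa1b, Hspa8, Dnajb6 and Stub1 lie on or near it.

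Hsp90aa1 (chr12:110690605-110702728, minus strand) encodes the inducible cytosolic HSP90. Its cardiomyocyte values were 123.8, 61.1 and 179.4 CPM in Tg mice 1, 2 and 3 and 220.5, 51.6 and 84.7 CPM in WT mice 1, 2 and 3. Fibroblasts were tighter, at 259.7, 234.8 and 287.5 CPM in Tg and 216.9, 256.6 and 256.9 CPM in WT mice. WT mouse 1 was the only mouse whose cardiomyocytes matched its fibroblasts. Hsp90aa1 was lower in cardiomyocytes by −1.27 (SE 0.30, adjusted p = 0.00605, 5 of 6 mice). The processed pseudogene Gm12346 held 57% of its 31-base stretches. Of 3 other HSP90 genes none was called: the cytosolic Hsp90ab1 stood at −0.43 (SE 0.20), Hsp90b1 of the endoplasmic reticulum at 0.60 (SE 0.26) and the mitochondrial Trap1 at 0.07 (SE 0.18).

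Among the J-domain genes, Dnajb6 (chr5:29735688-29818134, plus strand) had the clearest difference. DNAJB6 suppresses protein aggregation and sits at the Z-disc of striated muscle. It stood at 29.3, 27.0 and 32.3 CPM in cardiomyocytes of Tg mice 1, 2 and 3 and at 30.7, 29.2 and 29.2 CPM in those of WT mice. In fibroblasts it stood at 81.3, 96.2 and 109.8 CPM in Tg and at 74.8, 100.4 and 85.7 CPM in WT mice. The cell types did not overlap, and the difference was −1.62 (SE 0.17, 3.06-fold lower, adjusted p = 3.39e-05, 6 of 6 mice). Over the 6 cardiomyocyte samples its SD was 0.08 on the log2 scale, lower than in all but 0.104% of genes (median 0.47). The repeats of a mouse differed more than that, by a median of 0.36 and up to 0.73, so the even levels hold for the summed counts. The processed pseudogene Gm13414 held 38.3% of its 31-base stretches.

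Dnaja1 (chr4:40722150-40737149, plus strand) and Dnajb4 (chr3:152178511-152210302, minus strand) encode cytosolic partners of HSP70. Dnaja1 stood at 91.7, 59.9 and 154.2 CPM in cardiomyocytes of Tg mice and at 49.1, 55.6 and 78.8 CPM in those of WT mice, with 100.1 to 136.8 CPM in fibroblasts. It was lower in cardiomyocytes by −0.64 (SE 0.23, adjusted p = 0.0437, 5 of 6 mice), with Tg mouse 3 the exception. That call was lost without each mouse in turn other than Tg mouse 3. Dnajb4 ran from 12.2 to 26.3 CPM in Tg and from 12.4 to 54.2 CPM in WT cardiomyocytes, and from 25.7 to 40.6 CPM in fibroblasts. The highest cardiomyocyte value, of WT mouse 1, was above all fibroblasts. The difference was −0.92 (SE 0.29, adjusted p = 0.0225, 5 of 6 mice), and the call was lost without Tg mouse 2, WT mouse 2 or WT mouse 3.

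Dnajb1 (chr8:83608193-83612653, plus strand) encodes HSP40, the heat-inducible partner of HSP70. Its cardiomyocyte values were 47.7, 35.1 and 98.9 CPM in Tg mice 1, 2 and 3 and 61.3, 34.6 and 50.2 CPM in WT mice 1, 2 and 3. Fibroblasts held 79.4, 55.9 and 137.1 CPM in Tg and 50.8, 63.6 and 55.0 CPM in WT mice. Tg mouse 3 was highest in both cell types. The cell type estimate was −0.44 (SE 0.20, adjusted p = 0.0932, lower in 5 of 6 mice), and without WT mouse 1, the exception, it was called at −0.58.

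Stub1 (chr17:25830505-25833404, minus strand) was the member that ran the other way. CHIP is both a co-chaperone and a ubiquitin ligase. Its gene stood at 46.8, 54.7 and 82.4 CPM in cardiomyocytes of Tg mice 1, 2 and 3 and at 128.9, 37.9 and 68.6 CPM in those of WT mice 1, 2 and 3. In fibroblasts it stood at 28, 24.7 and 22.4 CPM in Tg and at 28, 26.8 and 23.8 CPM in WT mice. All 6 cardiomyocyte samples were above all 6 fibroblast samples, by 1.33 (SE 0.24, 2.52-fold higher, adjusted p = 0.00135, 6 of 6 mice). With scaling by library size alone, which moved the median of all genes to −0.95, Stub1 stood at 0.44 and was not called. Of its 31-base stretches, 38% also stood, on either strand, in its overlapping neighbour Jmjd8. No source used here says whether the counting used strand, so the count of Stub1 is uncertain to that extent.

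**Figure D4:**
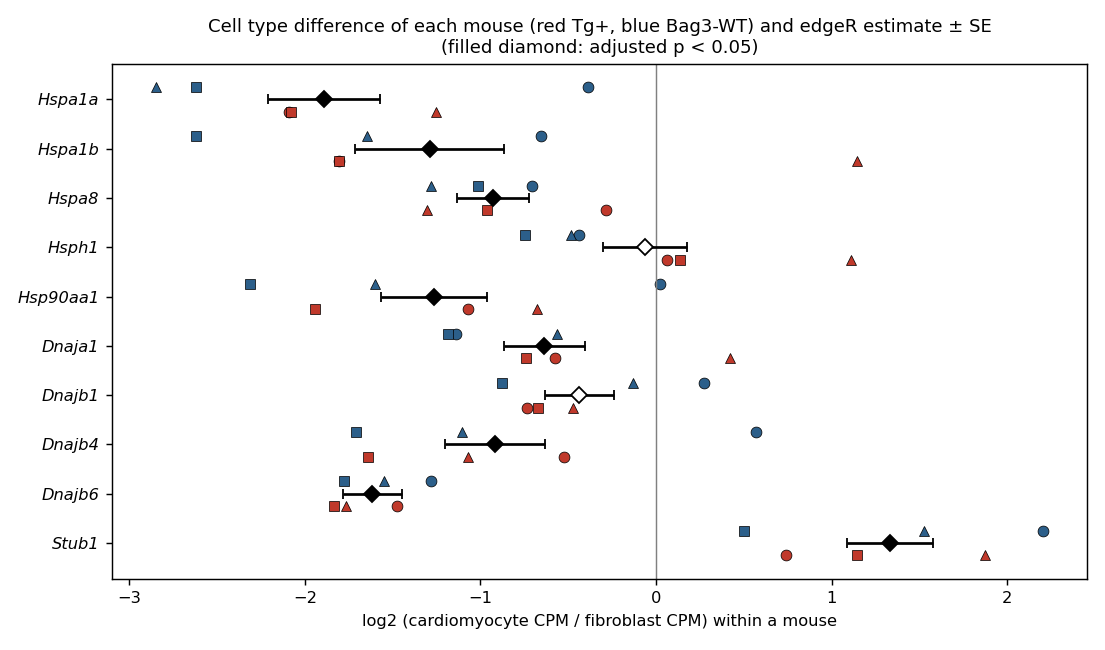
Difference between cardiomyocytes and fibroblasts of the same mouse (log2 ratio of CPM; Tg+ mice red, Bag3-WT mice blue; circle, square and triangle are mouse 1, 2 and 3), with the edgeR estimate and 1 SE as diamonds, filled where the adjusted p was below 0.05. Dnajb6 lies to the left and Stub1 to the right of 0 in all 6 mice, and Hsph1 lies to the right in the 3 Tg+ and to the left in the 3 Bag3-WT mice.

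Levels of different members were compared per kilobase of the longest principal transcript. Hspa8 led in both cell types, with a median of 145.8 CPM per kilobase in cardiomyocytes (117.1 to 255.2) and 300.5 in fibroblasts (248.2 to 323.2). Its lowest sample was above the highest sample of any other member in each cell type. Behind it in fibroblasts came Hspa1b (81.5), Hspa1a (79.6), Hsp90aa1 (78.2) and Dnajb6 (56.7), whose ranges overlapped. Within the genotypes this order was not the same: by mean Hsp90aa1 was above Hspa1a and Hspa1b in Tg fibroblasts (79.4, beside 63.1 and 62.5) and below both in WT fibroblasts (74.2, beside 106.5 and 121.1). Dnaja1 (20.6), Dnajb1 (19.9), Dnajb4 (15.4), Stub1 (14.3) and Hsph1 (9.08) were all below these. In cardiomyocytes the order after Hspa8 was Stub1 (34.2), Hsp90aa1 (31.8), Hspa1b (28.8), Dnajb6 (18.2), Hspa1a (17), Dnajb1 (16.3), Dnaja1 (12.3), Hsph1 (7.34) and Dnajb4 (6.18), and the ranges of neighbours in that order overlapped. The values depend on the transcript chosen: the principal transcripts of Dnaja1 ran from 3376 to 5622 bases and those of Dnajb4 from 1497 to 2464.

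The genotype comparison asked how cells of Bag3-P209L Tg+ mice differed from those of Bag3-WT mice. In cardiomyocytes none of the 10 members was called, as for the whole table: edgeR called 0 of 12439 genes (0%), with 89 at an unadjusted p below 0.05 (0.715%), and DESeq2 called 3 (0.0241%). The 2 genotypes overlapped for all 10 members, while 5.02% of genes did not overlap, 2.69% with Tg lower and 2.32% with Tg higher. Hspa1a had the lowest estimate at −1.17 (SE 0.72) and Hsph1 the highest at 0.91 (SE 0.55), each with an adjusted p = 0.9997 in edgeR. Dnaja1 stood at 0.73 (SE 0.41), Dnajb4 at −0.71 (SE 0.59), Stub1 at −0.37 (SE 0.47), Dnajb1 at 0.30 (SE 0.44), Hspa8 at 0.13 (SE 0.42), Hspa1b at −0.07 (SE 0.87), Hsp90aa1 at 0.02 (SE 0.60) and Dnajb6 at −0.02 (SE 0.26). The estimate of Hspa1a rested on WT mouse 1: without it the value was 0.31. Those of Hsph1 and Dnaja1 rested in large part on Tg mouse 3: without it they were 0.17 (SE 0.40) and 0.32 (SE 0.33). The sum of 13 cardiomyocyte markers was 1515 to 3079 CPM in Tg and 3090 to 3842 CPM in WT cardiomyocytes, without overlap. Their median estimate was −0.62, with 2 of the 13 at an unadjusted p below 0.05 in edgeR and none called. The sums of the other marker lists overlapped between the genotypes. The part of these markers in the member values was not tested.

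In fibroblasts both inducible HSP70 genes were lower in all 3 Tg mice than in any WT mouse. Hspa1a averaged 187 ± 35.3 CPM in Tg and 316 ± 61.9 CPM in WT fibroblasts, and Hspa1b 175 ± 36.2 and 339 ± 108 CPM (SD, n = 3 each). The estimates were −0.74 (SE 0.24, unadjusted p = 0.0163) for Hspa1a and −0.93 (SE 0.28, unadjusted p = 0.0114) for Hspa1b in edgeR. Neither passed adjustment (adjusted p = 0.768 for both), and the exact two-sided permutation p was 0.1, the smallest that 3 against 3 mice allow. Groups that did not overlap with Tg lower were found for 7.76% of genes, with Tg higher for 5.25%, and in either direction for 13%. Both genes share sequence and are not separate evidence; their sum stood at −0.84 (SE 0.27). Across the 6 alternatives that leave out 1 mouse, Hspa1a ran from −0.90 to −0.63 and Hspa1b from −1.11 to −0.67. Without WT mouse 1, whose fibroblast library had the highest mitochondrial share, they stood at −0.64 (SE 0.28) and −0.67 (SE 0.27).

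None of the other members was called in fibroblasts, where edgeR called 0 of 13571 genes (0%) with 690 at an unadjusted p below 0.05 (5.08%) and DESeq2 called 6 (0.0442%). Dnajb1 had the highest estimate, 0.70 (SE 0.33, adjusted p = 0.768), which fell to 0.29 without Tg mouse 3, and its groups overlapped. The remaining 7 members lay between −0.20 (Hsph1) and 0.15 (Dnajb6), with SEs from 0.15 to 0.33. Macrophage and myeloid markers moved with the genotype in these libraries: the sum of 13 such genes was 2221 to 5014 CPM in Tg and 5486 to 6959 CPM in WT fibroblasts, with 5 of the 13 at an unadjusted p below 0.05 and none called. By both this sum and the sum of Hspa1a and Hspa1b, Tg mouse 3 was lowest, and WT mice 2, 3 and 1 came last, in that rising order. Only Tg mice 1 and 2 changed places between the 2 orders. Their marker sums were 3779 and 5014 CPM, and their sums of Hspa1a and Hspa1b were 438.9 and 348.4 CPM. The myeloid sum and the sum of Hspa1a and Hspa1b each separated the genotypes without overlap, which by itself fixed part of the shared order. The orders of the other marker sums were not set beside the members. The sum of 10 endothelial markers was 1917 to 2602 CPM in Tg and 1297 to 1756 CPM in WT fibroblasts, also without overlap, with 1 of the 10 at an unadjusted p below 0.05. Immediate early genes, which cell isolation can raise, summed to 7340 to 8046 CPM in Tg and 5586 to 6879 CPM in WT fibroblasts. Of these 17 genes, 4 stood at an unadjusted p below 0.05 in edgeR, not all in the same direction, and none was called. The part of these markers in the Hspa1a and Hspa1b values was not tested.

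Whether the cell type difference itself depended on genotype was tested as an interaction, and none of the members was called (edgeR 0 of 13891 genes, 0%, with 124 at an unadjusted p below 0.05, 0.893%; DESeq2 1, 0.0072%). Hsph1 had the largest estimate, 0.99 (SE 0.40, unadjusted p = 0.0333, adjusted p = 1.0). Its cardiomyocytes were above its fibroblasts by 0.06, 0.13 and 1.11 on the log2 scale in Tg mice 1, 2 and 3 while the log2 ratio was −0.44, −0.75 and −0.48 in WT mice 1, 2 and 3. This pattern stood in 0.274% of genes, and in 0.446% in either direction. Without Tg mouse 3 the estimate was 0.66. The split around 0 was read from the TMM-scaled expected counts. It held relative to nuclear counts but not relative to library totals, where Tg mice 2 and 3 were below 0 too. In the second deposited table, where Hsph1 was higher in cardiomyocytes by 1.72, the interaction stood at 0.82 (SE 0.81).

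Other chaperone genes around the members did not share a common direction by cell type. Of 37 other J-domain genes tested, 6 were higher and 9 lower in cardiomyocytes (median 0.07, all genes −0.04). Dnajc6, an auxilin that uncoats clathrin vesicles, was higher by 3.57 (SE 0.40) at a low level of 3.49 against 0.286 CPM, as were Dnaja3 (0.78, SE 0.18) and Dnajc19 (0.79, SE 0.22), both of the mitochondrion. Dnajb9 of the endoplasmic reticulum (−1.74, SE 0.17), Dnaja2 (−1.23, SE 0.22) and the auxilin gene Gak (−0.82, SE 0.19) were lower. Of 11 other HSP70 and HSP110 genes, 1 was higher and 1 lower (median −0.15): Hspa12b stood at 0.93 (SE 0.19), and Hspa5, which encodes BiP of the endoplasmic reticulum, at −1.08 (SE 0.24).

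Among 6 small heat shock protein genes tested, whose products bind BAG3 or the same clients, 5 were higher and 1 lower (median 1.60). The lower gene was Hspb1 (−0.74, SE 0.20), while Cryab, Hspb2 and Hspb7 were among the higher ones. Of 6 BAG family genes, Bag2 (1.58, SE 0.36) and Bag4 (1.00, SE 0.33) were higher and Bag3 (−1.20, SE 0.34, adjusted p = 0.0153) was lower, with a median of −0.07. Among 26 HSP70 and HSP90 co-chaperone genes, 6 were higher and 4 lower (median 0.07). Higher were Fkbp4 (1.175, SE 0.21), the HSP90 activator gene Ahsa1 (1.15, SE 0.27) and Itgb1bp2, which encodes the muscle co-chaperone melusin (1.96, SE 0.42), and lower were Fkbp5 (−0.73, SE 0.18), Tomm34 (−0.61, SE 0.20) and Sgta (−0.50, SE 0.17).

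Of 14 genes that act with CHIP in ubiquitin-dependent quality control, 1 was higher and 3 lower in cardiomyocytes (median −0.18). The ubiquitin-conjugating enzyme gene Ube2w was higher (1.07, SE 0.20). The autophagy receptor gene Sqstm1 was lower at 148 against 1823 CPM, and Ubb, which encodes ubiquitin, was lower too (−1.07, SE 0.20). Of 4 heat shock factor genes tested, Hsf1 was higher (0.92, SE 0.23, adjusted p = 0.00786) and 0 were lower. None of 10 other chaperone genes was called (median 0.36). By genotype and in the interaction, 0 genes of these lists were called in edgeR.

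The labelled cell types were checked against their markers, compared between the same libraries as the cell type calls above. All 13 cardiomyocyte markers were higher in cardiomyocytes (median 1.92), and they were present in fibroblast libraries at sums of 733 to 1507 CPM against 1515 to 3842 CPM. Fibroblast markers did not separate the cell types: of 13, 2 were higher in cardiomyocyte libraries (Col1a1 at 2.52 and Col1a2 at 1.38), 1 was lower (Tcf21 at −0.98), and their sums overlapped. All 13 macrophage and myeloid markers were lower in cardiomyocytes (sums of 428.6 to 1529 against 2221 to 6959 CPM), as were 16 of 17 immediate early genes (1398 to 2640 against 5586 to 8046 CPM). Of 10 endothelial markers 2 were lower (1299 to 3044 against 1297 to 2602 CPM), and all 8 smooth muscle markers were higher (417.2 to 1809 against 153.2 to 751.7 CPM). Of the most abundant markers, the cardiac actin gene Actc1 ran from 161.3 to 751.8 CPM in cardiomyocytes and from 73.2 to 199 CPM in fibroblasts, Gsn from 1191 to 2703 and from 1136 to 4881 CPM, and the lysozyme gene Lyz2 from 211.4 to 599.9 and from 737.5 to 1861 CPM. No marker was at 0 in all samples of a group. The part of these other cells and of the isolation in the 8 cell type calls of the members was not tested.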

How the data were processed

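Each table covered 19094 genes annotated as protein-coding, and every column was matched to a library by its name. The first table the authors deposited holds expected counts (estimated counts, 44.6% of them not whole at a tolerance of 1e-06). The second deposited table holds a normalized signal, and no source used here says how it was made. Of the authors' tools and build, the submitters' processing notes list GRCm38.p6, R 3.4.4, DESeq2 1.18.1 and kallisto 0.44.0, without their roles.

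Expected counts of rep1 and rep2 were summed per mouse and rounded. The mouse was the replicate, since each mouse has its own code in the labels. The codes of Tg mouse 1 and WT mouse 1 share their first part, whose meaning the labels do not give, and no fit used it. The labels state an additional sequencing round for cardiomyocytes, not whether the repeats are those rounds. Genotype was tested in each cell type (3 against 3 mice), cell type within the 6 mice, and the interaction, with edgeR 4.0.16 (filterByExpr, TMM, robust glmQLFit, two-sided) in R 4.3.3. Alternatives used DESeq2 1.42.0 and limma 3.58.1. The common biological coefficient of variation was 0.495 (genotype in cardiomyocytes), 0.284 (fibroblasts), 0.361 (cell type) and 0.381 (interaction).

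The members and lists were chosen with earlier results of these data known. All members and Bag3 are named, and of each other list up to 3 genes per direction with the lowest p among those called, or, of markers, up to 2 with the highest level. Not every item that the rule names is reported. Hsp90ab1, Hsp90b1, Trap1, Col1a1, Col1a2 and Tcf21 were named after their values were seen. Positions and lengths come from GENCODE M21, promoters from RefSeq.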

Additional observations from a re-analysis of the deposited data

Results flagged for a closer look

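The interaction of genotype and cell type in Hsph1 stood out because cardiomyocytes were above fibroblasts in all 3 Tg mice and below them in all 3 WT mice. This holds for the expected counts after TMM scaling or relative to nuclear counts, but not relative to library totals. In the second deposited table the interaction stood at 0.82 (SE 0.81) around a cell type difference of 1.72. The estimate from the expected counts was 0.99 on the log2 scale (SE 0.40, edgeR unadjusted p = 0.0333, adjusted p = 1.0). The 3 Tg mice were not alike: Tg mice 1 and 2 lay at 0.06 and 0.13, and Tg mouse 3 at 1.11.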

How the results depend on the processing

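Of the 4 comparisons, the cell type calls moved: 5 members were called without the mouse block, and 5 to 8 when 1 mouse was left out, with 5 without Tg mouse 2, WT mouse 2 or WT mouse 3. Hspa1a, Hspa8 and Dnajb6 kept the call in every alternative run, and Dnaja1 lost it in 7 of 14. Members called by genotype or interaction stayed at 0 throughout. With the replicate block (rep1 or rep2 as a term, mice correlated at 0.729) 0 members were called in cardiomyocytes, and Dnajb6 turned to 0.0296. Deviations of same-numbered cardiomyocyte libraries of the 2 genotypes correlated at a mean of 0.0119 over 18 pairs, from −0.4735 to 0.4697. A mean of such mixed values cannot exclude that particular mice were paired.

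Other changes of sign, all log2 estimates by genotype that were not called unless said otherwise, had causes that were not tested. In cardiomyocytes DESeq2 gave Dnajb6 0.0028, rep2 alone Dnajb6 0.0781, rep1 alone Hsp90aa1 −0.10 (interaction −0.0149) and the second table Hsp90aa1 −0.0628 (interaction −0.11). The letter F or M of the animal codes as a covariate gave Dnajb1 −0.0142, Hsp90aa1 −0.35 and Hspa8 −0.0109, and Dnaja1 −0.007 in fibroblasts, where the second table gave Dnaja1 −0.0655. That letter was F in Tg mouse 1, Tg mouse 3 and WT mouse 1, and M in the other mice. It was not balanced between the genotypes, and the main genotype fits left it out. By cell type Hsph1 stood at 0.0461 without the mouse block and 1.72 in the second table, where it was called. In 1 of 14 alternatives it was called in the other direction, lower in cardiomyocytes.

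Scaling by library size alone moved the median of all genes to 0.84 in cardiomyocytes by genotype, 0.36 in fibroblasts and 0.30 in the interaction. There Bag3 stood at 0.71, Dnajb4 at 0.46, Dnajb6 at 0.82, Hspa1b at 0.60 and Stub1 at 0.43 in cardiomyocytes, Dnajb4 at 0.18, Hspa8 at 0.19, Hsph1 at 0.19 and Stub1 at 0.31 in fibroblasts, and Bag3 at 0.22, Dnajb6 at 0.14 and Stub1 at 0.12 in the interaction.

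Leaving out 1 mouse at a time, estimates crossed 0 in these ranges. In cardiomyocytes: Hspa1a −1.58 to 0.31, Hspa1b −1.38 to 0.96, Hspa8 −0.30 to 0.34, Hsp90aa1 −0.36 to 0.83, Dnajb1 −0.22 to 0.57, Dnajb4 −1.15 to 0.20, Dnajb6 −0.0731 to 0.0399, Stub1 −0.70 to 0.20 and Bag3 −0.55 to 0.45. In fibroblasts: Hsph1 −0.42 to 0.10, Dnaja1 −0.10 to 0.12, Dnajb4 −0.26 to 0.0389, Stub1 −0.13 to 0.0382 and Bag3 −0.20 to 0.43. In the interaction: Hspa1a −0.31 to 0.93, Hspa1b −0.17 to 1.33, Hspa8 −0.11 to 0.38, Hsp90aa1 −0.44 to 0.73, Dnajb4 −0.81 to 0.33, Stub1 −0.61 to 0.24 and Bag3 −0.66 to 0.56. By cell type, Hsph1 ran from −0.30 to 0.0672.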
